A study of Mus musculus with 26 samples.

Results

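The enzymes that make cholesterol and fatty acids were followed across the RNA-seq libraries of the series, together with the factors that control their genes. The set holds 32 genes named for their roles in these pathways. Each was found as 1 row of the deposited expression table by its gene symbol, out of 52454 symbols in all. Of these symbols, 14150 had a mean of at least 1 FPKM (read fragments corrected for transcript length and library depth) over the 10 libraries and are called the genes tested here. All 32 members are among them. They fall into 7 genes of the mevalonate and isoprenoid steps, 11 of the squalene and sterol steps, 4 sterol regulators and transport proteins, and 10 of the fatty acid and lipid steps.

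The study asked where DNMT3A and DNMT3B set up DNA methylation in mouse cells, and RNA-seq was available from 10 libraries with 1 library per condition. Mouse embryonic fibroblasts (MEFs) came from E14.5 male C57BL6 embryos, labelled *Dnmt3a* WT or *Dnmt3a* KO, from crosses of mice heterozygous for the tm1Enl allele (line B6;129S4 in the study's methods). They were kept for 2 days with 10 µM GSK126, an inhibitor of the H3K27 methyltransferase EZH2, or with its solvent DMSO, which gives 4 libraries. The 2i-MEFs were E14.5 fibroblasts of female F1 background (129X1/SvJ and MSM/Ms) from *Dnmt3a* KO or *Dnmt3b* KO ES cells kept in 2i medium. These ES cells were GFP-labelled clones injected into host blastocysts, so the fibroblasts were sorted for GFP. WT 2i-MEFs were not analysed here. E14.5 heart and liver of male C57BL6 embryos, labelled *Dnmt3a* WT or *Dnmt3a* KO, give the other 4 libraries. The heart and the liver of each genotype carry the same number in their labels, which do not say whether it marks an embryo.

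With 1 library per condition there is no replicate spread, so every difference between a pair of libraries is given as a description, with no test. The only tests are fits over 4 libraries that take the genotype label as a block, chosen after the values had been seen. Their p-values treat the WT and the labelled KO libraries as replicates of a treatment or tissue. The depth, recovered from the steps between low FPKM values, ran from 9191364 to 25945401 mapped reads per library. On their longest annotated transcript, all 32 members had at least 100 reads in every library, and the lowest was *Scd1* in WT heart with 109. On the shortest annotated transcript, the same level would rest on 3 reads, and that of *Lss* in WT heart on 18. *Dnmt3a* itself was at 12.7 FPKM in the liver labelled KO against 53.5 in WT liver, whereas the heart labelled KO had 125 against 55.0. The MEFs labelled KO had 85.7 FPKM with DMSO and 84.5 with GSK126, against 26.1 and 19.3 in WT. In heart and MEFs these whole-gene levels run against the labels, so their libraries are called "labelled KO" throughout. They do not show whether the allele was lost, since the exons that it removes were not examined. In 2i-MEFs *Dnmt3a* was at 4.21 FPKM in *Dnmt3a* KO and 23.9 in *Dnmt3b* KO, the direction of the labels. *Pax8*, which was looked up because the study followed it in these cells, was at 4.24 and 6.92 FPKM in the MEFs labelled KO with DMSO and GSK126, against 0.236 and 0.101 in WT, and at 0.0491 FPKM or below in heart and liver. In 2i-MEFs it was at 16.6 FPKM in *Dnmt3a* KO and 0.715 in *Dnmt3b* KO. DNA methylation was not analysed here. The marker genes matched the labelled tissues: 7 cardiomyocyte markers summed to 20825 and 18877 FPKM in the hearts and 7 fibroblast markers to between 5980.4 and 17535 in the cultured cells. In liver, 7 hepatocyte markers summed to 21273 FPKM in WT and 14066 under the KO label, beside 58779.5 and 86731 for 7 erythroid markers.

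Cholesterol is built from acetyl-CoA through mevalonate, the isoprenoid farnesyl diphosphate, squalene and lanosterol, and fatty acids are built from the same acetyl-CoA by way of malonyl-CoA. The genes of both pathways are targets of the SREBP transcription factors, which are encoded by *Srebf1* and *Srebf2*. SREBP precursors stay in the endoplasmic reticulum while sterols are plentiful, held by SCAP and the INSIG proteins, and are carried to the Golgi and cleaved when sterols run low. SREBPs bind sterol regulatory elements in promoters, usually next to sites of the CCAAT-binding factor NF-Y or of Sp1, and liver is a major site of both pathways in the animal.

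The promoters of 4 members are printed because they show how these motifs lie in the genes described next. RefSeq windows from 250 bases before to 50 bases after the annotated start (build GRCm38.p6, which is mm10) were at hand for 25 of the 32 members, in 30 windows. At most the 250 bases before that start are printed, 5′ to 3′ on the strand of the gene. For *Mvk*, 208 are, because the first 42 lie in an exon of its neighbour *Mmab* on the other strand (GENCODE M21). No printed base lies in an exon of that annotation, although exons of other RefSeq transcripts reach into the bases of *Mvk*, *Mvd* and *Fasn*. Capitals mark CCAAT or its reverse complement ATTGG (the NF-Y box) and TCACNCCAC (a sterol regulatory element core). *Hmgcs1* holds the sterol element, *Mvk* has the most NF-Y boxes, *Mvd* had the largest GSK126 ratio of all members in WT, and *Fasn* is the central gene of fatty acid synthesis. The printed bases are chr13:119690101-119690350 for *Hmgcs1* (gene at chr13:119690379-119708260) and chr5:114444061-114444268 for *Mvk* (gene at chr5:114444269-114460591), both on the plus strand. On the minus strand lie chr8:122443423-122443672 for *Mvd* (gene at chr8:122433601-122443422) and chr11:120824548-120824797 for *Fasn* (gene at chr11:120805846-120824547). Gene positions are those of the deposited table.
Hmgcs1: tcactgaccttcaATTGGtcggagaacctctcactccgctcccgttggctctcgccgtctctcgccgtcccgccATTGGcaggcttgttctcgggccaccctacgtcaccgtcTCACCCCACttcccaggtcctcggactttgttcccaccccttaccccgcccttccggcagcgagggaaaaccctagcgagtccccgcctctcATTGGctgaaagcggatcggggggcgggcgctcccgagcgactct
Mvk: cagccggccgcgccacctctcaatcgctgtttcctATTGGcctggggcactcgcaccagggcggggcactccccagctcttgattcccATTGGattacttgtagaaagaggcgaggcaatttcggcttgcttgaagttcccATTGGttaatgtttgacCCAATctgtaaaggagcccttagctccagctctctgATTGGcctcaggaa
Mvd: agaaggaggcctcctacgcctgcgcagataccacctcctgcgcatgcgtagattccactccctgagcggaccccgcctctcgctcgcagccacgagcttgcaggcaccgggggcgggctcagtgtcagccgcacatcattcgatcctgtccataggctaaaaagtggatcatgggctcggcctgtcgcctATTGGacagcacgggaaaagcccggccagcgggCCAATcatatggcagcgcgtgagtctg
Fasn: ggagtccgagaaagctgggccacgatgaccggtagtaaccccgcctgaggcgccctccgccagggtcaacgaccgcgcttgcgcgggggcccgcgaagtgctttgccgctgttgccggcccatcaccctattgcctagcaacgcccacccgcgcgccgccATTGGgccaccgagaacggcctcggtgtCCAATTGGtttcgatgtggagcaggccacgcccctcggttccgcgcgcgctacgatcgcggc

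The NF-Y box (CCAAT, either strand) was found in 20 of the 25 members with a window. The share over all 27025 genes with a window was 41.1%, and it was 43.2% over the 6095 of them with a mean of at least 10 FPKM. At least 2 such boxes lay in the windows of 10 members, against 13.3% of all genes and 17.3% of those at 10 FPKM or more. The Sp1 box (GGGCGG, either strand) was found in 20 of 25 members, against 38.2% of all genes but 72.1% of those at 10 FPKM or more. The sterol element core TCACNCCAC, searched on both strands, was found in 1 of 25 members (*Hmgcs1*) and in 1.44% of all genes (1.53% of those at 10 FPKM or more). The E-box CACGTG was found in 4 members and in 8.09% of all genes, or 12.5% of those at 10 FPKM or more. The sterol element of *Hmgcs1* overlapped no NF-Y box, and 2 of the 3 NF-Y boxes of *Fasn* overlap on opposite strands. Of the 4 boxes of *Hmgcs1*, 1 lies beyond the start and is not shown. The matches describe letters in these windows only. No window was at hand for *Fdps*, *Fdft1*, *Sqle*, *Stard4*, *Scd1*, *Scd2* and *Fads1*.

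In MEFs with GSK126, each of the 32 members was higher than with DMSO. In WT MEFs, 21 of 32 members were at least 2-fold higher in FPKM + 1 than with DMSO, against 1.46% of the genes tested. In the MEFs labelled KO this held for 28 of 32 members, against 1.41% of the genes tested. No member was at least 2-fold lower in either, where the shares of all genes were 1.07% in WT and 2.37% under the KO label. In both genotypes together, 20 members were at least 2-fold higher, out of only 55 such genes in all (0.389%), so members make up 36.4% of those genes. The log2 ratio was above 0 in both genotypes for 32 of 32 members and for 24.8% of the genes tested. The members' median log2 ratio was 1.14 in WT and 1.66 under the KO label, where the medians over all genes tested were 0 and -0.03.

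All 32 members had both GSK126 libraries above both DMSO libraries, which 2108 of the 14150 genes tested also had. The 100 genes with the largest log2 ratio included 9 members in WT and 20 under the KO label. Some of the other genes in those tails have an FPKM of exactly 0 in 1 of the libraries, which may be a failed estimate. Of the 207 genes at least 2-fold higher in WT, 51 were at 0 with DMSO, and of the 200 under the KO label, 27 were. Among genes above 0 in both libraries, the shares at least 2-fold higher were 1.16% in WT and 1.28% under the KO label. No member was at 0 in any library. In a limma fit of GSK126 over the 4 MEF libraries with the genotype as a block, which has 1 residual degree of freedom and takes the difference between the genotypes' responses as error, none of the 32 members passed an adjusted p of 0.05 (adjusted p = 0.64 for each), and 0% of the genes tested did. At an unadjusted p under 0.05, 30 of 32 members were higher, against 3.41% of the genes tested. The members and the fit were chosen with results of these data known, so this count is a description only.

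**Figure D1:**
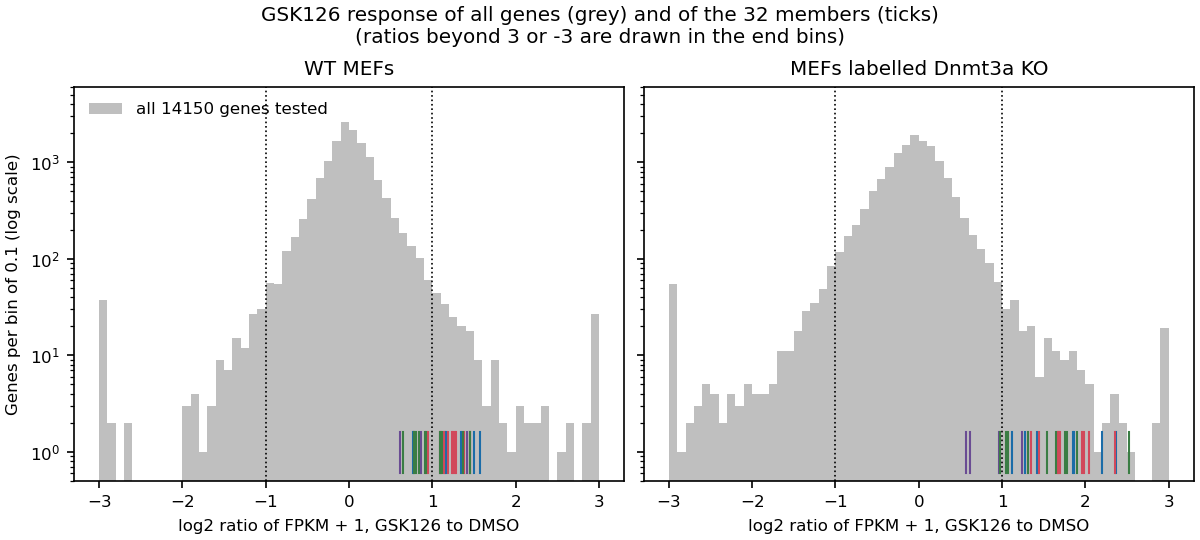
Number of genes (vertical axis, log scale) per bin of 0.1 in the log2 ratio of FPKM + 1 between GSK126 and DMSO (horizontal axis), in WT MEFs (left) and MEFs labelled *Dnmt3a* KO (right). Grey bars are all 14150 genes tested, ratios beyond the axis are in the end bins, coloured ticks are the 32 members by group (blue mevalonate, red squalene and sterol, purple regulators, green fatty acid), and dotted lines mark 2-fold. Every tick lies to the right of 0, from 0.62 to 1.58 in WT and from 0.56 to 2.52 under the KO label.

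The mevalonate and isoprenoid steps had a median log2 ratio of 1.16 in WT and 1.85 under the KO label, with 5 and 7 of 7 members at least 2-fold higher. Values of the 2i-MEFs are given in the order *Dnmt3a* KO, *Dnmt3b* KO, and values of heart and liver in the order WT, labelled KO. *Acat2* encodes the cytosolic thiolase that joins acetyl-CoA units into acetoacetyl-CoA. *Acat2* measured 23.4 FPKM with DMSO and 53.7 with GSK126 in WT MEFs, and 17.2 and 64.8 under the KO label (log2 ratios 1.16 and 1.85). Outside those MEFs, *Acat2* had 23.6 and 26.6 FPKM in 2i-MEFs, 10.1 and 10.5 in heart and 38.4 and 43.0 in liver. Its 2 highest levels were those with GSK126. *Hmgcs1* encodes the synthase that makes HMG-CoA, and its promoter is the printed one with a sterol element. In WT MEFs *Hmgcs1* was at 43.1 FPKM with DMSO and 96.6 with GSK126, a log2 ratio of 1.15, and under the KO label it was at 52.0 and 127, a ratio of 1.27. *Hmgcs1* stood at 84.2 and 87.7 FPKM in 2i-MEFs, 25.2 and 27.4 in heart, and 67.8 and 76.0 in liver. In 2i-MEFs it was nearly as high as in WT MEFs with GSK126. The kinase of mevalonate is encoded by *Mvk*. For *Mvk*, the level went from 51.8 FPKM with DMSO to 89.9 with GSK126 in WT MEFs and from 41.9 to 113 under the KO label, with log2 ratios of 0.78 and 1.41. Outside those MEFs, *Mvk* had 32.5 and 31.0 FPKM in 2i-MEFs, 20.6 and 21.9 in heart and 44.9 and 51.4 in liver. *Pmvk* encodes the next kinase of the pathway. *Pmvk* measured 29.5 FPKM with DMSO and 50.8 with GSK126 in WT MEFs, and 27.9 and 61.6 under the KO label (log2 ratios 0.76 and 1.12). *Pmvk* stood at 21.5 and 23.5 FPKM in 2i-MEFs, 42.0 and 46.5 in heart, and 71.2 and 69.1 in liver. Unlike the other 6, *Pmvk* was highest in liver, above both GSK126 libraries. Its ratios with GSK126 were the smallest of these 7 genes under both labels.

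*Mvd*, which encodes the decarboxylase that yields isopentenyl diphosphate, had the largest ratio of all members in WT. In WT MEFs *Mvd* was at 33.7 FPKM with DMSO and 102 with GSK126, a log2 ratio of 1.58, and under the KO label it was at 23.7 and 126, a ratio of 2.37. Outside those MEFs, *Mvd* had 33.6 and 32.4 FPKM in 2i-MEFs, 16.6 and 20.1 in heart and 36.6 and 39.4 in liver. The 2 GSK126 libraries stood far above the rest, which spanned only 16.6 to 39.4 FPKM. *Idi1* encodes the isomerase of isopentenyl diphosphate. For *Idi1*, the level went from 18.8 FPKM with DMSO to 55.1 with GSK126 in WT MEFs and from 17.6 to 84.3 under the KO label, with log2 ratios of 1.5 and 2.2. *Idi1* stood at 20.3 and 22.5 FPKM in 2i-MEFs, 9.16 and 11.5 in heart, and 32.7 and 43.9 in liver. Its GSK126 libraries were again the 2 highest, and both hearts were the 2 lowest. Farnesyl diphosphate synthase, encoded by *Fdps*, stands where the sterol branch leaves the isoprenoid pathway. *Fdps* measured 147 FPKM with DMSO and 374 with GSK126 in WT MEFs, and 131 and 479 under the KO label (log2 ratios 1.34 and 1.86). Outside those MEFs, *Fdps* had 136 and 194 FPKM in 2i-MEFs, 70.7 and 79.2 in heart and 240.0 and 284 in liver. It was the most abundant of these 7 genes in all 10 libraries.

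Among the squalene and sterol steps, 10 of 11 members were at least 2-fold higher in WT and 11 of 11 under the KO label, with medians of 1.23 and 1.69. *Fdft1* encodes squalene synthase, the first step committed to sterols. In WT MEFs *Fdft1* was at 51.0 FPKM with DMSO and 117 with GSK126, a log2 ratio of 1.18, and under the KO label it was at 43.7 and 143, a ratio of 1.69. *Fdft1* stood at 60.0 and 67.0 FPKM in 2i-MEFs, 27.9 and 29.9 in heart, and 67.4 and 80.5 in liver. *Sqle* encodes squalene epoxidase, a rate-limiting enzyme of the pathway. For *Sqle*, the level went from 44.3 FPKM with DMSO to 109 with GSK126 in WT MEFs and from 40.7 to 132 under the KO label, with log2 ratios of 1.29 and 1.67. Outside those MEFs, *Sqle* had 61.8 and 66.7 FPKM in 2i-MEFs, 17.8 and 22.6 in heart and 56.0 and 65.8 in liver. Lanosterol synthase, which closes the sterol rings, is encoded by *Lss*. *Lss* measured 46.1 FPKM with DMSO and 103 with GSK126 in WT MEFs, and 38.3 and 124 under the KO label (log2 ratios 1.14 and 1.67). *Lss* stood at 57.5 and 57.8 FPKM in 2i-MEFs, 8.15 and 11.6 in heart, and 104 and 101 in liver. In WT MEFs with GSK126, *Lss* came up to the level of the livers. *Cyp51* encodes the first enzyme that demethylates lanosterol. In WT MEFs *Cyp51* was at 82.5 FPKM with DMSO and 197 with GSK126, a log2 ratio of 1.25, and under the KO label it was at 82.2 and 267, a ratio of 1.69. Outside those MEFs, *Cyp51* had 87.7 and 101 FPKM in 2i-MEFs, 25.6 and 27.8 in heart and 77.2 and 87.1 in liver. The next step is a reduction, for which *Tm7sf2* encodes an enzyme. For *Tm7sf2*, the level went from 23.1 FPKM with DMSO to 50.9 with GSK126 in WT MEFs and from 14.8 to 79.6 under the KO label, with log2 ratios of 1.11 and 2.35. *Tm7sf2* stood at 8.37 and 11.4 FPKM in 2i-MEFs, 4.71 and 3.55 in heart, and 40.3 and 59.7 in liver. *Tm7sf2* had the largest ratio of this group under the KO label, and its WT and labelled KO ratios were further apart than those of any other member.

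*Msmo1* encodes the oxidase that starts the removal of further methyl groups. *Msmo1* measured 122 FPKM with DMSO and 321 with GSK126 in WT MEFs, and 98.8 and 395 under the KO label (log2 ratios 1.38 and 1.99). Outside those MEFs, *Msmo1* had 127 and 128 FPKM in 2i-MEFs, 41.5 and 63.4 in heart and 152 and 178 in liver. It was the most abundant gene of the sterol steps in 9 of the 10 libraries. *Nsdhl* encodes the dehydrogenase that follows. In WT MEFs *Nsdhl* was at 24.6 FPKM with DMSO and 60.9 with GSK126, a log2 ratio of 1.27, and under the KO label it was at 19.3 and 82.4, a ratio of 2.04. *Nsdhl* stood at 24.8 and 31.9 FPKM in 2i-MEFs, 12.3 and 17.1 in heart, and 31.3 and 46.4 in liver. *Hsd17b7* encodes the reductase that completes this removal. For *Hsd17b7*, the level went from 11.9 FPKM with DMSO to 26.4 with GSK126 in WT MEFs and from 13.6 to 38.7 under the KO label, with log2 ratios of 1.09 and 1.45. Outside those MEFs, *Hsd17b7* had 14.4 and 15.3 FPKM in 2i-MEFs, 10.1 and 11.3 in heart and 12 and 10.0 in liver. Apart from the GSK126 libraries, *Hsd17b7* kept within 10.0 and 15.3 FPKM. *Ebp* encodes an isomerase that moves the double bond of the sterol ring. *Ebp* measured 39.6 FPKM with DMSO and 77.5 with GSK126 in WT MEFs, and 35.1 and 88.4 under the KO label (log2 ratios 0.95 and 1.31). *Ebp* stood at 49.2 and 30.2 FPKM in 2i-MEFs, 37.0 and 35.9 in heart, and 102 and 129.6 in liver. Both livers were above both GSK126 libraries, and the WT ratio stayed below 2-fold. *Sc5d* encodes the desaturase of the late pathway. In WT MEFs *Sc5d* was at 15.2 FPKM with DMSO and 37.1 with GSK126, a log2 ratio of 1.23, and under the KO label it was at 19.5 and 51.0, a ratio of 1.34. Outside those MEFs, *Sc5d* had 31.5 and 37.8 FPKM in 2i-MEFs, 5.51 and 4.83 in heart and 31.7 and 37.2 in liver. *Dhcr7* encodes the reductase that makes cholesterol itself. For *Dhcr7*, the level went from 38.7 FPKM with DMSO to 108 with GSK126 in WT MEFs and from 24.8 to 99.3 under the KO label, with log2 ratios of 1.45 and 1.96. *Dhcr7* stood at 78.8 and 77.1 FPKM in 2i-MEFs, 34.6 and 42.7 in heart, and 161 and 164 in liver. Its livers were the 2 highest libraries, as for *Ebp*.

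**Figure D2:**
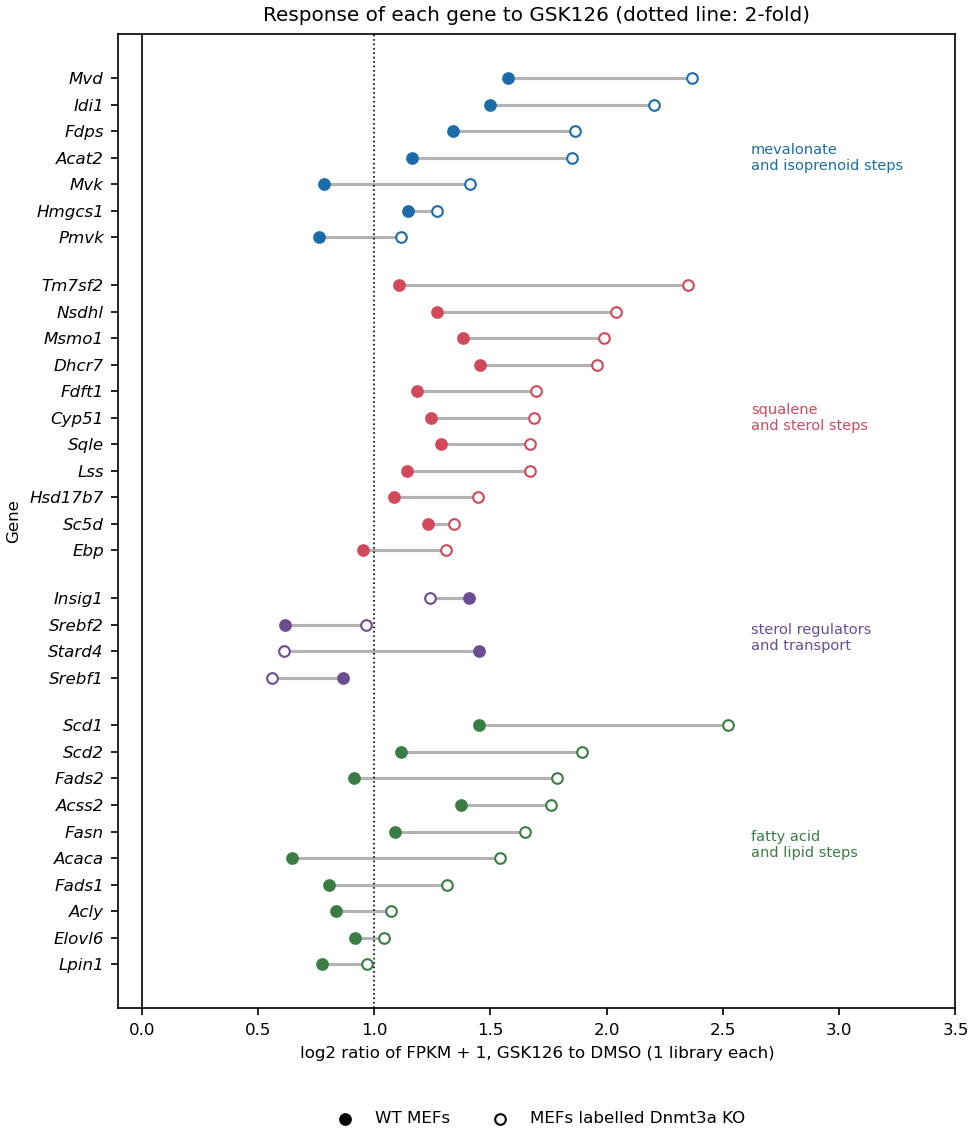
Log2 ratio of FPKM + 1 between GSK126 and DMSO (horizontal axis) for each of the 32 genes (vertical axis, by group), in WT MEFs (filled points) and MEFs labelled *Dnmt3a* KO (open points), 1 library per condition. The dotted line marks 2-fold. The open point lies to the right of the filled one for 29 genes and to the left for *Srebf1*, *Insig1* and *Stard4*.

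The sterol regulators and transport proteins had a median of 1.14 in WT and 0.79 under the KO label, with 2 and 1 of 4 at least 2-fold higher. *Srebf1* and *Srebf2* encode the SREBPs. *Srebf1* measured 65.6 FPKM with DMSO and 121 with GSK126 in WT MEFs, and 71.1 and 105 under the KO label (log2 ratios 0.87 and 0.56). Outside those MEFs, *Srebf1* had 84.5 and 89.4 FPKM in 2i-MEFs, 41.7 and 44.4 in heart and 83.1 and 89.5 in liver. The WT ratio was the larger one for this gene, and the GSK126 libraries were the 2 highest. In WT MEFs *Srebf2* was at 60.1 FPKM with DMSO and 92.6 with GSK126, a log2 ratio of 0.62, and under the KO label it was at 46.8 and 92.3, a ratio of 0.96. *Srebf2* stood at 54.5 and 56.8 FPKM in 2i-MEFs, 42.8 and 43.6 in heart, and 46.9 and 48.2 in liver. Neither gene reached 2-fold in either genotype, and *Srebf2* had the smallest ratio of all members in WT. *Insig1* encodes the endoplasmic reticulum protein that retains SREBPs and is itself a known SREBP target. For *Insig1*, the level went from 35.5 FPKM with DMSO to 95.9 with GSK126 in WT MEFs and from 48.8 to 117 under the KO label, with log2 ratios of 1.41 and 1.24. Outside those MEFs, *Insig1* had 56.1 and 52.1 FPKM in 2i-MEFs, 6.72 and 7.99 in heart and 26.9 and 25 in liver. Its levels were lowest in the hearts, and the livers were below all MEF and 2i-MEF libraries. *Stard4* encodes a protein that carries sterols through the cytosol. *Stard4* measured 8.36 FPKM with DMSO and 24.6 with GSK126 in WT MEFs, and 14.4 and 22.6 under the KO label (log2 ratios 1.45 and 0.61). *Stard4* stood at 12.5 and 15.4 FPKM in 2i-MEFs, 5.96 and 10.6 in heart, and 35.0 and 38 in liver. The livers had the 2 highest levels of *Stard4*. In MEFs its DMSO level was higher under the KO label and its GSK126 level was not.

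In the fatty acid and lipid steps, 4 of 10 members were at least 2-fold higher in WT and 9 of 10 under the KO label, with medians of 0.92 and 1.59. *Acly* and *Acss2* encode the enzymes that make cytosolic acetyl-CoA from citrate and from acetate. In WT MEFs *Acly* was at 80.6 FPKM with DMSO and 145 with GSK126, a log2 ratio of 0.83, and under the KO label it was at 77.3 and 164, a ratio of 1.07. Outside those MEFs, *Acly* had 88.2 and 102 FPKM in 2i-MEFs, 45.2 and 73.4 in heart and 105 and 116 in liver. Its WT heart was the lowest library, well below the heart labelled KO. For *Acss2*, the level went from 9.51 FPKM with DMSO to 26.2 with GSK126 in WT MEFs and from 7.61 to 28.2 under the KO label, with log2 ratios of 1.37 and 1.76. *Acss2* stood at 5.93 and 5.82 FPKM in 2i-MEFs, 9.77 and 11.1 in heart, and 24.1 and 26.3 in liver. *Acss2* was thus close to the livers with GSK126 and well below them with DMSO. *Acaca* encodes acetyl-CoA carboxylase, which makes malonyl-CoA. *Acaca* measured 18.6 FPKM with DMSO and 29.7 with GSK126 in WT MEFs, and 9.14 and 28.5 under the KO label (log2 ratios 0.65 and 1.54). Outside those MEFs, *Acaca* had 13.3 and 19.3 FPKM in 2i-MEFs, 15.2 and 17.4 in heart and 21.6 and 21.5 in liver. The lowest of its 10 levels was that of the labelled KO MEFs with DMSO. *Fasn* encodes fatty acid synthase. In WT MEFs *Fasn* was at 91.9 FPKM with DMSO and 197 with GSK126, a log2 ratio of 1.09, and under the KO label it was at 72.9 and 230.5, a ratio of 1.65. *Fasn* stood at 50.6 and 56.4 FPKM in 2i-MEFs, 71.1 and 66.1 in heart, and 77.6 and 100.4 in liver. *Elovl6* encodes an enzyme that lengthens the product of fatty acid synthase. For *Elovl6*, the level went from 12.9 FPKM with DMSO to 25.3 with GSK126 in WT MEFs and from 14.4 to 30.8 under the KO label, with log2 ratios of 0.92 and 1.04. Outside those MEFs, *Elovl6* had 11 and 9.30 FPKM in 2i-MEFs, 4.85 and 5.41 in heart and 9.0 and 13.9 in liver. Its WT ratio was just under 2-fold and its labelled KO ratio just over it.

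The desaturases came next. *Scd1* and *Scd2* encode close paralogs that place the first double bond in saturated fatty acids, so reads may be shared between them where their sequences match, although reads that mapped to several places were removed by the authors. *Scd1* measured 43.7 FPKM with DMSO and 121 with GSK126 in WT MEFs, and 27.6 and 164 under the KO label (log2 ratios 1.45 and 2.52). *Scd1* stood at 43.8 and 51.3 FPKM in 2i-MEFs, 1.25 and 2.04 in heart, and 29.2 and 46.7 in liver. *Scd1* had the largest GSK126 ratio of all members under the KO label and the widest span, with a highest level 131 times the lowest. In WT MEFs *Scd2* was at 216 FPKM with DMSO and 469 with GSK126, a log2 ratio of 1.11, and under the KO label it was at 148 and 551, a ratio of 1.89. Outside those MEFs, *Scd2* had 178 and 199 FPKM in 2i-MEFs, 128 and 137 in heart and 156 and 211 in liver. *Scd2* was the most abundant of the 10 genes in every library. *Fads1* and *Fads2*, neighbours on chromosome 19, encode the desaturases of polyunsaturated fatty acids. For *Fads1*, the level went from 65.2 FPKM with DMSO to 115 with GSK126 in WT MEFs and from 56.3 to 141 under the KO label, with log2 ratios of 0.81 and 1.31. *Fads1* stood at 80.5 and 98.4 FPKM in 2i-MEFs, 28.8 and 32.6 in heart, and 57.2 and 74.6 in liver. The hearts had the 2 lowest levels of *Fads1*. *Fads2* measured 78.7 FPKM with DMSO and 149 with GSK126 in WT MEFs, and 53.8 and 188 under the KO label (log2 ratios 0.92 and 1.78). Outside those MEFs, *Fads2* had 65.9 and 80.9 FPKM in 2i-MEFs, 53.6 and 52.0 in heart and 101 and 123 in liver. Both genes stayed below 2-fold in WT and passed it under the KO label. *Lpin1* encodes a phosphatidate phosphatase of glycerolipid synthesis. In WT MEFs *Lpin1* was at 10.2 FPKM with DMSO and 18.2 with GSK126, a log2 ratio of 0.78, and under the KO label it was at 10.5 and 21.5, a ratio of 0.97. *Lpin1* stood at 6.14 and 5.62 FPKM in 2i-MEFs, 2.83 and 3.31 in heart, and 3.26 and 2.19 in liver. It was the least abundant member in the livers, and its GSK126 ratios stayed under 2-fold in FPKM + 1, although under the KO label the fold in FPKM itself was 2.05.

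The responses were larger under the KO label for 29 of 32 members, whereas 45.2% of all genes tested had a larger ratio there. The median difference between the ratios (labelled KO minus WT) was 0.50 over the members and -0.03 over all genes tested. Neither value could be tested. With DMSO, 24 members were lower in the labelled KO than in WT MEFs (median log2 ratio -0.21), as were 44.7% of the genes tested. With GSK126, 27 were higher (median 0.28), as were 49.3% of the genes tested. All 5 macrophage markers were lower in the labelled KO with DMSO (median -0.67) and with GSK126 (-0.65), as were all 7 fibroblast markers (-0.48 and -0.54). Of 7 cardiomyocyte markers, 2 were higher and 3 lower with DMSO (median 0), with *Tnnt2* over 2-fold higher (1.57). With GSK126 all 7 cardiomyocyte markers were lower in the labelled KO (median -0.11). The part of these markers in the members' differences was not tested. Across the 32 genes, the ratios of the 2 genotypes, which share no library, had a Pearson's r of 0.56 and a Spearman's rho of 0.60. These describe genes that share libraries and are no replicates.

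Other genes of the same metabolism moved less. None of the 10 other SREBP pathway and sterol genes reached 2-fold in either genotype, and their median log2 ratios were 0.06 in WT and 0.40 under the KO label. Of 11 other fatty acid synthesis genes, only *Acsl3* passed in WT, from 17.3 to 39.5 FPKM, and only *Mid1ip1* under the KO label, from 23.3 to 64.4. *Acsl3* encodes an acyl-CoA synthetase and *Mid1ip1* a protein that activates acetyl-CoA carboxylase. Their list medians were 0.18 and 0.48. Of 7 LXR target genes, only *Lpcat3*, which encodes a phospholipid-remodelling acyltransferase, passed under the KO label (59.7 to 126 FPKM) and none in WT. The LXR medians were 0.16 and 0.47. No gene of 8 of fatty acid oxidation reached 2-fold, and 7 of 8 were lower with GSK126 in each genotype (medians -0.21 and -0.23).

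Markers of other cell types and states were read beside these ratios. Of 6 adipocyte markers, *Adipoq*, *Plin1* and *Cidec* were at or below 0.337 FPKM in all 4 MEF libraries. *Fabp4* was at 13.7 and 16.6 FPKM in WT with DMSO and GSK126, and at 16.1 and 21.6 under the KO label. *Cebpa* lay between 13.1 and 15.7 FPKM and *Pparg* between 4.90 and 8.11. The list summed to 33.7 and 36.0 FPKM in WT with DMSO and GSK126 and to 39.6 and 45.4 under the KO label. The adipocyte medians were 0.02 and 0.01, with 3 of 6 higher and 2 lower with GSK126 under each label. The 5 macrophage markers were plainly present in MEFs, with a sum of 1334 FPKM with DMSO and 1384 with GSK126 in WT and of 1125 and 989 under the KO label, against at most 21.9 in 2i-MEFs. None of them changed 2-fold with GSK126. Of 6 proliferation markers, 5 were lower with GSK126 in WT and 6 under the KO label (medians -0.71 and -0.70). *Bub1* was at 4.24 FPKM with DMSO and 5.54 with GSK126 in WT, whereas *Ccnb1* was over 2-fold lower under both labels. Of 7 fibroblast markers, *Col3a1* alone was 2-fold lower, with 2754 FPKM with DMSO and 1193 with GSK126 under the KO label, and the list medians were -0.27 and -0.42. The 7 cardiomyocyte markers were low, but all 7 were higher with GSK126 in WT (median 0.29), where they summed to 1.95 FPKM with DMSO and 9.28 with GSK126, and *Tnnt2* was over 2-fold higher, at 6.76 against 1.49 FPKM. Under the KO label they summed to 7.35 and 7.73 FPKM, with 4 of 7 higher and a median of 0.05. The 7 hepatocyte and 7 erythroid markers summed to at most 7.13 and 2.57 FPKM in these 4 libraries. The 6 housekeeping genes had medians of -0.10 and 0.20. The part of these shifts in the lipid gene ratios was not tested, and fewer cells of a type and less RNA per cell cannot be told apart in bulk samples.

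**Figure D3:**
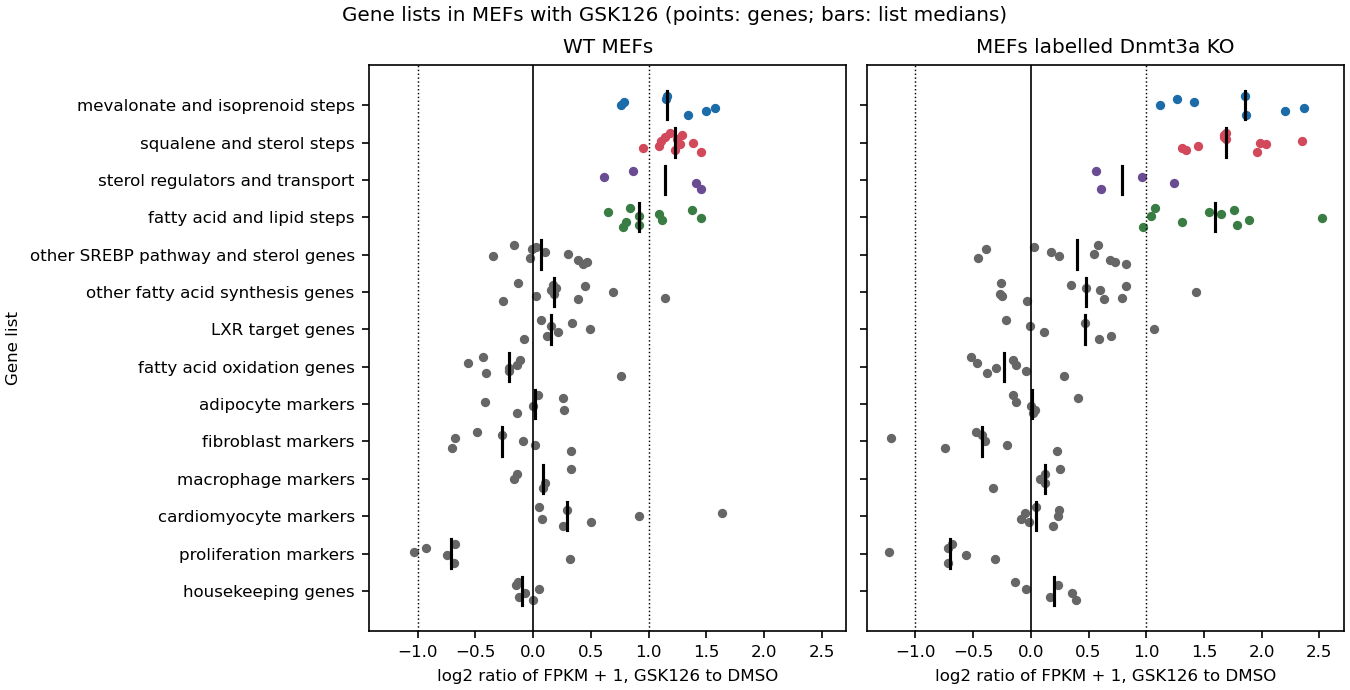
Log2 ratio of FPKM + 1 between GSK126 and DMSO (horizontal axis) for the genes of 14 lists (vertical axis), in WT MEFs (left) and MEFs labelled *Dnmt3a* KO (right). Points are genes, black bars are list medians and dotted lines mark 2-fold. The 4 upper lists hold the 32 members, with medians from 0.92 to 1.23 in WT and from 0.79 to 1.85 under the KO label, while no other list has a median above 0.48.

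Across the 10 libraries, 28 members were highest in a GSK126-treated MEF library and the other 4, *Pmvk*, *Ebp*, *Dhcr7* and *Stard4*, in liver, where the shares of the genes tested were 12.2% and 32.2%. For 24 members, both GSK126 libraries lay above all 8 other libraries, as for 3.8% of the genes tested. The lowest level was in a heart library for 24 members, as for 20.9% of the genes tested. The exceptions were *Pmvk*, *Ebp*, *Acss2* and *Fasn*, lowest in a 2i-MEF library, *Dhcr7* and *Acaca*, lowest in the labelled KO MEFs with DMSO, and *Hsd17b7* and *Lpin1*, lowest in the liver labelled KO. *Srebf2* varied least, 2.16-fold between its highest and lowest library, and *Srebf1* 2.89-fold. The widest spans after *Scd1* were those of *Tm7sf2* (22.4-fold), *Insig1* (17.4-fold) and *Lss* (15.2-fold).

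**Figure D4:**
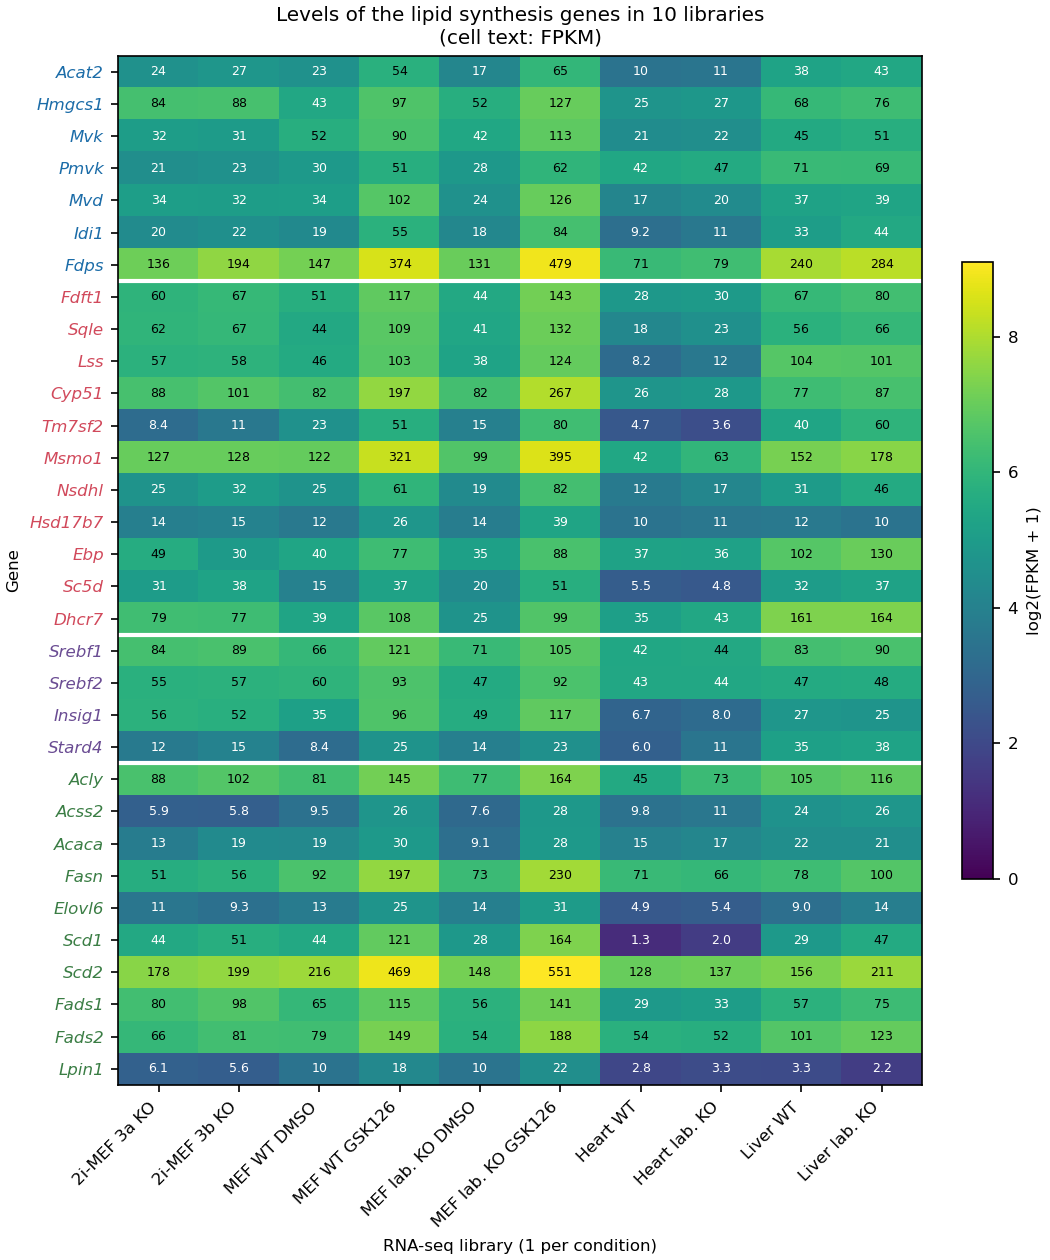
Levels of the 32 genes (rows, by group in the order mevalonate, sterol, regulators, fatty acid) in the 10 libraries (columns, with "lab." for labelled), as log2(FPKM + 1) in colour and as FPKM in the cells. The GSK126 columns are brightest for most genes and the heart columns darkest, and *Scd1* is at 1.25 and 2.04 FPKM in the hearts.

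Liver had more of these transcripts than heart. Both livers lay above both hearts for 30 of 32 members and for 5983 of the 14150 genes tested. In WT, 21 members were at least 2-fold higher in liver, against 19.2% of the genes tested, and under the KO label 22 were, against 18.1%. Under both labels, 19 members passed, against 15% of the genes tested. No member was 2-fold lower, against 18.8% and 21.7% of the genes tested. The median log2 ratio was 1.26 in WT and 1.39 under the KO label, where the medians over all genes were 0.06 and 0. As TPM, which sets every library to the same total, the members' medians were 1.15 and 1.20, with 32 and 29 of 32 above 0, and the medians over all genes moved by -0.06 and -0.15. In a limma fit of liver against heart with the labelled number as a block, 26 of 32 members were higher at an adjusted p under 0.05, against 26.7% of the genes tested. The 6 that did not pass were *Hsd17b7*, *Srebf2*, *Acaca*, *Fasn*, *Scd2* and *Lpin1*. The genes differed widely among themselves. *Scd1* had the largest ratios, 3.75 and 3.97, with hearts at 1.25 and 2.04 FPKM, and *Lss* (3.52 and 3.02), *Tm7sf2* (2.85 and 3.74) and *Sc5d* (2.33 and 2.71) were also above 2 under both labels.

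At the other end, *Fasn* had the smallest ratio in WT, 0.12, and 0.59 under the KO label, with hearts at 71.1 and 66.1 FPKM. *Srebf2* stood at 0.13 and 0.14. *Lpin1* (0.15 and -0.43) and *Hsd17b7* (0.23 and -0.15) had the only ratios below 0. By group, the median ratios were 1.39 and 1.44 for the mevalonate steps, 1.6 and 1.61 for the sterol steps, 1.41 and 1.26 for the regulators, and 0.84 and 0.91 for the fatty acid steps. Across the 32 genes, the ratios of the 2 labels had a Pearson's r of 0.93 and a Spearman's rho of 0.94, over genes of the same libraries. Both tissues are mixtures of cells. Erythroid markers were high in both, at 19887 and 14319 FPKM in the hearts, and hepatocyte markers summed to 51.9 and 12 FPKM there. Proliferation markers were at least 2-fold higher in liver for 4 of 6 in WT and 5 of 6 under the KO label (medians 1.14 and 1.11), and macrophage markers for 4 and 3 of 5 (medians 1.76 and 1.42). Fibroblast markers were at least 2-fold lower for 3 and 6 of 7. The part of this makeup in the ratios was not tested.

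**Figure D5:**
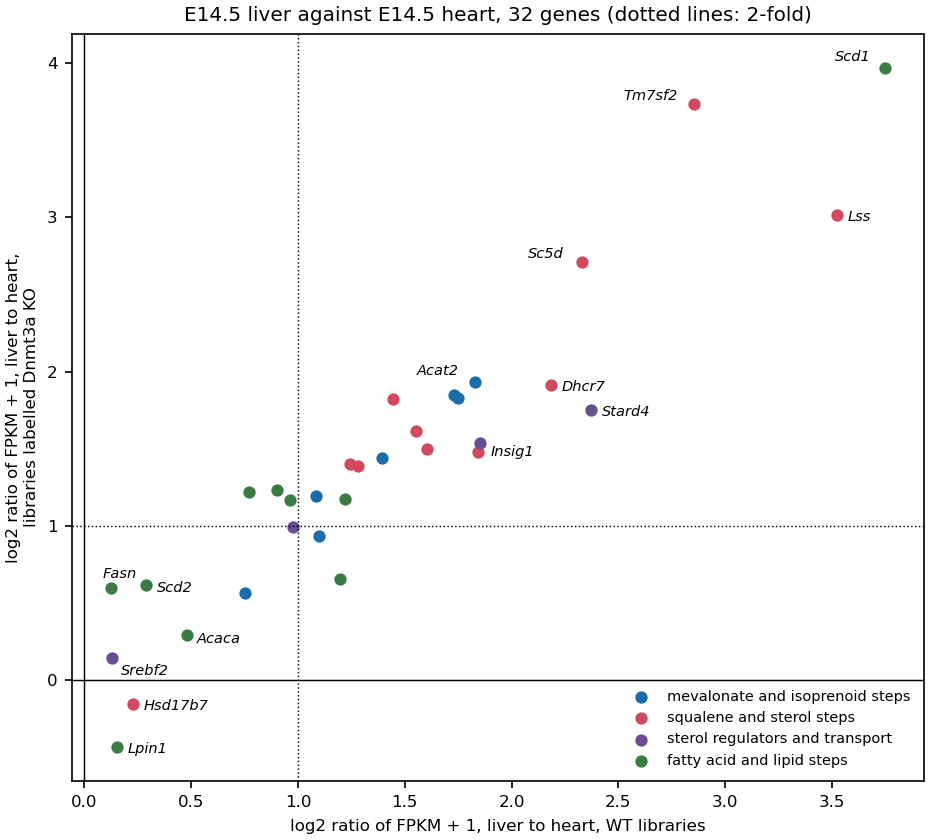
Log2 ratio of FPKM + 1 between liver and heart in the WT libraries (horizontal axis) and in the libraries labelled *Dnmt3a* KO (vertical axis), 1 point per gene, coloured by group, with dotted lines at 2-fold. *Scd1*, *Lss*, *Tm7sf2* and *Sc5d* lie at the upper right, and *Lpin1* and *Hsd17b7* are the 2 points below the horizontal line at 0.

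Against untreated fibroblasts, liver stood less apart. In WT liver, 7 members were at least 2-fold higher than in WT MEFs with DMSO, against 22.4% of the genes tested, and 1, *Lpin1*, was at least 2-fold lower, against 23.4%. The 7 were *Dhcr7* (log2 ratio 2.03), *Stard4* (1.95), *Ebp* (1.35), *Acss2* (1.26), *Pmvk* (1.24), *Lss* (1.16) and *Sc5d* (1.01), and *Lpin1* was at -1.39. The members' median was 0.33, with 22 of 32 above 0, against 50.7% of the genes tested. Expressed as TPM, the median was -0.09, with 12 of 32 above 0 and 2 members at least 2-fold higher, while the median over all genes moved by -0.33. The sign of the members' median thus depended on the scaling. Hepatocyte markers summed to 7.13 FPKM in these MEFs and fibroblast markers to 11828, against 21273 and 511 in WT liver. In MEFs with DMSO, 2 members lay above both livers in both genotypes, and with GSK126, 24 did, where the shares of the genes tested were 42.1% and 42.3%.

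Between the *Dnmt3a* labels, these genes differed less than with GSK126. In each comparison of genotypes none of the 32 members differed 2-fold in FPKM + 1 in either direction. The shares of all genes tested that did were 4.81% in MEFs with DMSO, 4.26% in MEFs with GSK126, 2.58% in heart and 2.61% in liver, and 6.73% between *Dnmt3a* KO and *Dnmt3b* KO 2i-MEFs. The largest differences were those of *Acaca* in MEFs with DMSO (-0.95, which passes 2-fold with a pseudocount of 0.1), *Stard4* in heart (0.74) and in MEFs with DMSO (0.72), *Ebp* between the 2i-MEFs (0.69, higher in *Dnmt3a* KO) and *Acly* in heart (0.69). In heart 27 members were higher under the KO label (median 0.15), against 48.7% of the genes tested. All 7 hepatocyte markers (median -1.64, with 4 at least 2-fold lower) and all 7 erythroid markers (median -0.68) were lower there. In liver 26 were (median 0.18), against 36.8% of the genes tested, whose median was -0.08. All 7 fibroblast markers (median -0.59, with 2 at least 2-fold lower) and all 5 macrophage markers (median -0.47) were lower there. Cardiomyocyte markers summed to 6.72 FPKM against 60.5 in WT, mostly from *Actc1* (3.97 against 48.5). Of these 7 markers, 4 were lower and 3 higher (median -0.08). Among 7 erythroid markers, 4 were higher and 3 lower (median 0.29), with *Hbb-bt* over 2-fold higher (1.28). Hepatocyte markers were lower for 4 of 7 and higher for 3 (median -0.36). In 2i-MEFs, 24 of 32 were lower in *Dnmt3a* KO than in *Dnmt3b* KO, with a median of -0.13, against 44.5% of the genes tested. All 6 proliferation markers (median 0.39) and all 5 macrophage markers (median 0.44, with *C1qa* over 2-fold) were higher in *Dnmt3a* KO there. Of 6 adipocyte markers, *Cebpa* alone was higher (1.17), 3 were lower, and the list median was -0.11. Cardiomyocyte markers in liver and adipocyte markers in 2i-MEFs had medians smaller in size than those of the members. The other marker medians given here for heart, liver and 2i-MEFs exceed the members' medians in size. The part of the markers in the members' medians was not tested. Since the whole-gene *Dnmt3a* level went against the label in heart and MEFs, these directions describe the labelled libraries. The 4 comparisons among MEFs share libraries, so the values with DMSO and GSK126 are not independent of the GSK126 ratios.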

How the data were processed

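RNA was measured by stranded poly(A) RNA-seq with 75-base single reads. As the study's methods state, the authors computed FPKM with cufflinks 2.2.1 from reads trimmed by cutadapt and aligned to mm10 (GENCODE M15) by tophat 2.1.1 with bowtie2 2.3.2, after dropping reads that mapped to several places or with a MAPQ under 20. The submitters' processing notes list cutadapt 1.9.1, TopHat2 2.1.0 and Bowtie2 2.2.5 and 2.2.8. The deposited FPKM table of 52609 rows holds no read counts, and no scaling between libraries is stated. The 16 DNA methylation samples were not used here.

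Rows of the same symbol were summed. Ratios are log2 ratios of FPKM + 1, which understate the change of low genes, and no p-value was calculated for a pair of libraries. After the values had been seen, GSK126 against DMSO and liver against heart were also fitted with limma 3.58.1 (R 4.3.3) to log2(FPKM + 1) of 4 libraries each, with the genotype label as a block, which in the tissues is also the number that heart and liver share and Benjamini-Hochberg adjustment over the genes tested. Genes tested had a mean of at least 1 FPKM. Depth was estimated from genes with 1 transcript of at least 1500 bases (GENCODE M21, fragments of 196 bases). Between 98.0% and 99.1% of their values under 10 reads lay within 0.1 of a whole read, where 20% would by the tolerance alone. Alternatives were a pseudocount of 0.1, no filter, a mean of at least 10 FPKM, centring on the median, TPM and the highest row per symbol. Levels in every library were given for members at least 2-fold changed with GSK126 or with extreme liver to heart ratios, and here for the others too. From the other lists, only genes changed 2-fold were named as changed. Other marker genes, among them those at or near 0, were named after their values were seen. The members, lists and tests were chosen with earlier results of these data known. The ratio and its counts were tested on simulated data with counting error only. The fit was tested on simulated data in which the response did not differ between genotypes. Neither covers the spread between real libraries or a response that differs by genotype. Python 3.11.15, numpy 2.4.6, pandas 2.3.3, scipy 1.17.1 and matplotlib 3.10.9 were used.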

Additional observations from a re-analysis of the deposited data

Results flagged for a closer look

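A pair of genes differed between the *Dnmt3a* labels in opposite directions depending on the samples. *Tm7sf2* had a log2 ratio of labelled KO to WT of -0.61 in MEFs with DMSO and of 0.63 in MEFs with GSK126. *Scd1* had a ratio of -0.64 in MEFs with DMSO and of 0.66 in liver. Each of these differences rests on 1 library per condition and was not tested.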

How the results depend on the processing

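Of 180 values, which are 30 results under 6 alternatives each, 176 kept their direction and stayed within the set limits. The other 4 moved, and 1 of these, a median, changed sign. No filter and the highest row per symbol could not move a member, since every member has 1 row and passes the filter. The 30 values under each of these alternatives were thus the same by construction. With a pseudocount of 0.1, 1 member (*Acaca*) was at least 2-fold lower in the labelled KO than in WT MEFs with DMSO, against 0. For WT liver against WT MEFs with DMSO, TPM gave 2 members at least 2-fold higher in place of 7 and a median log2 ratio of -0.0947 in place of 0.33, the change of sign, where the median over all genes moved by -0.33. In the same comparison, a mean of at least 10 FPKM left 0 members at least 2-fold lower in place of 1, because *Lpin1* was then not tested. With GSK126, the members at least 2-fold higher numbered 21 in WT and 27 under the KO label as TPM, close to the 21 and 28 in FPKM. With a pseudocount of 0.1 they numbered 21 and 29, with *Lpin1* added. The fits with the genotype label as a block, chosen after seeing the data, called 0 members for GSK126 and 26 for liver against heart. Without the block they called 0 and 26. With a pseudocount of 0.1, a mean of at least 10 FPKM or a variance trend, they called 0 members for GSK126 (adjusted p from 0.548 to 0.767 over all alternatives) and from 24 to 26 for liver against heart. Depth limits low levels most, as for *Scd1* in WT heart with 109 reads on its longest transcript and 3 on its shortest.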
